A study of Mus musculus with 6 samples.

Results

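The 113 heavy chain V segments of the mouse immunoglobulin locus, counted in 6 libraries of bone marrow stem cells, are described here. They are the rows of the deposited table that carry the gene type IG_V_gene and a name that starts with Ighv, and they make up 113 of the 55487 rows. All lie on chromosome 12 of GRCm38, on the minus strand, between positions 113578504 and 116000461, a span of 2.422 Mb, and each has the same coordinates in GENCODE M21. The libraries were made from long-term hematopoietic stem cells (LT-HSCs), sorted as lineage-, Sca-1+, c-Kit+, Flk2- and CD34- cells from the bone marrow of wild type mice that had not been irradiated. There were 3 libraries from mice given saline and 3 from mice that received carnosine, which is beta-alanine linked to histidine. No dose, treatment time, age, sex or animal number is stated in the labels. Nor do they say that replicate libraries were made from different animals, so every p-value below measures only the spread between these libraries, which may be technical.

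A heavy chain V segment encodes most of the antigen-binding domain of an antibody heavy chain. In developing B cells the RAG recombinase joins 1 V segment to a D and a J segment, and the joined exon is then spliced to a constant region exon set such as that of IgM or IgA. The segments fall into subfamilies by sequence, given by the first number of the name, and cells of the B lineage that carry different joined segments form the antibody repertoire. Plasma cells, the end stage of that lineage, hold large amounts of joined heavy and light chain RNA, while stem cells have not yet joined their segments. A read over a V segment can come from a joined or from an unjoined transcript, and the counts do not tell these apart.

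The germline coding sequences of 4 segments are shown as examples of the changes described below. Ighv3-1, Ighv8-12 and Ighv1-39 are the tested members with the largest fitted rises in subfamilies 3, 8 and 1, and Ighv1-12 is the single tested member that fell. Each sequence is the last 300 coding bases of the GENCODE M21 transcript (GRCm38, minus strand), printed 5′ to 3′ up to the end that is joined to a D segment. These bases lie in the second of the 2 exons, which encodes the V domain. Ighv3-1 lies at chr12:113964388-113964818, Ighv8-12 at chr12:115647945-115648387, Ighv1-39 at chr12:114914599-114915032 and Ighv1-12 at chr12:114615850-114616318. Capitals mark the last in-frame TGT, the cysteine codon just before the part that forms the third complementarity-determining region.
Ighv3-1: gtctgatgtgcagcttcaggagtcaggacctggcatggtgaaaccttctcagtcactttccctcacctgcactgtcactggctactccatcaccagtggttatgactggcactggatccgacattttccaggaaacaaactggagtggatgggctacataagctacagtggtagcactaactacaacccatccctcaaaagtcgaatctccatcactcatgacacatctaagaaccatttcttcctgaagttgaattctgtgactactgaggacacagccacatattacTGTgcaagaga
Ighv8-12: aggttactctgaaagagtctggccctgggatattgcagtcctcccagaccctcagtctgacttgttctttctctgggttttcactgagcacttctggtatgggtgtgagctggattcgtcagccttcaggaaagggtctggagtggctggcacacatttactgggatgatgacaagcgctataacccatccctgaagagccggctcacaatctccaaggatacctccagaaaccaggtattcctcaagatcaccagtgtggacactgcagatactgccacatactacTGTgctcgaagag
Ighv1-39: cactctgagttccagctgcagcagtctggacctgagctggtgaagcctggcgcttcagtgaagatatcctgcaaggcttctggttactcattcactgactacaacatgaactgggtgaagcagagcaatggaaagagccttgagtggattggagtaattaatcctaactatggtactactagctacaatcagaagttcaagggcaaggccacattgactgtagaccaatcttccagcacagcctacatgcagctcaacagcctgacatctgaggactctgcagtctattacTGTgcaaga
Ighv1-12: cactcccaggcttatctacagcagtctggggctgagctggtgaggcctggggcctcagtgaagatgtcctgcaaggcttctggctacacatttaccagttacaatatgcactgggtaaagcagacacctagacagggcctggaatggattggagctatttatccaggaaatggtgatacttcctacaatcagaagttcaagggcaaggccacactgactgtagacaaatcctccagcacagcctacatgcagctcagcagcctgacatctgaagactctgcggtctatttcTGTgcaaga

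The summed level of all heavy chain V segments rose in the carnosine libraries. Members held 2884, 2905 and 3649 counts in the saline libraries and 12303, 10504 and 13439 counts in the carnosine libraries. Library totals were of similar size in both groups, 10304539 to 13251332 counts, so members made up 0.0276% to 0.0282% of all counts with saline and 0.101% to 0.102% with carnosine. Scaled to library size, as CPM (counts scaled to a common library size) on the scale of the trimmed mean of M-values (TMM), the sum came to 279 ± 2.95 CPM with saline and 1016 ± 5.36 CPM with carnosine (SD, n = 3), a 3.65-fold difference. The groups were far apart relative to their spread, and the exact two-sided permutation test over libraries gave p = 0.1, the smallest that 3 against 3 allows. Entered as 1 row of the whole table, the sum rose by 1.87 on the log2 scale (SE 0.02, edgeR quasi-likelihood adjusted p = 8.82e-09). In sorted bulk RNA, more cells of a type and more RNA per cell cannot be told apart.

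Across single segments, 68 of the 79 members that passed the filter on low counts rose, 1 fell and 10 were not called (edgeR adjusted p threshold 0.05 over 15298 genes). For comparison, 9.51% of all genes tested were called higher and 8.39% lower, 17.9% in either direction. The median log2 fold change of the 79 members was 2.03, against 0.00092 over all genes tested. The 5 tested members without a saline count lay above that median even at their lower bounds (3.80 or more), so it does not depend on their fitted values. Of these members 63 had a log2 fold change above 1, 10 lay between 0 and 1, and 6 were below 0. Of all 113 members, 79 were higher in every carnosine library than in any saline library, 6 were lower in every one and 28 overlapped, beside 19.7% and 19% of all genes tested whose groups did not overlap in these directions. The 34 members not tested comprised 14 with no count in any library and 20 with few counts, which together held 132 counts in saline and 265 in carnosine. Since a low member could pass the filter through the carnosine libraries alone, the counts over tested members are a description of those members and not of the family.

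**Figure D1:**
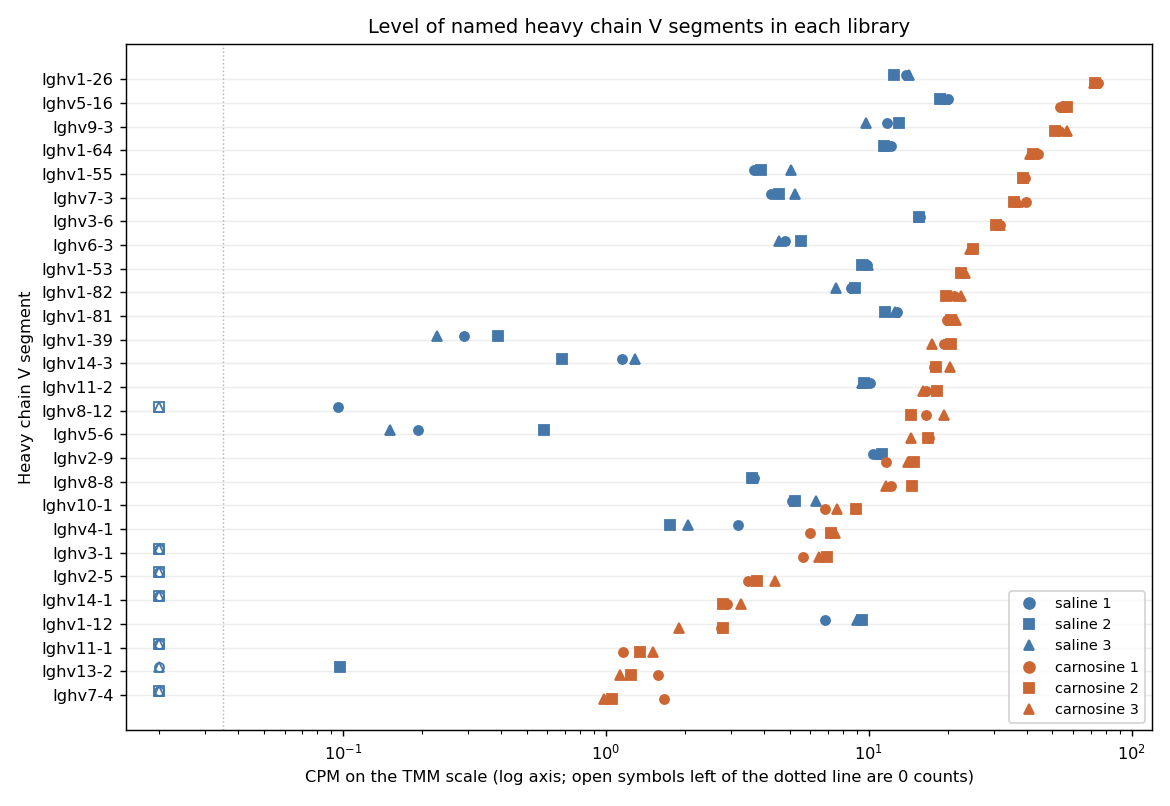
Level of the 27 segments named by rule in each of the 6 libraries, in CPM on the TMM scale (log axis), with saline in blue and carnosine in orange and open symbols for libraries with 0 counts. Ighv1-26 reached the highest carnosine level (73.0 CPM on average), 5 segments had no count in any saline library, and Ighv1-12 is the segment whose saline values lie to the right of its carnosine values.

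Segments with high counts rose by different amounts. Ighv1-26 had 144, 129 and 188 counts in the saline libraries and 900, 754 and 946 in the carnosine libraries. All carnosine values lay above all saline values, and the level rose from 13.5 ± 0.903 CPM to 73.0 ± 1.51 CPM (SD, n = 3; log2 fold change 2.43, SE 0.07, edgeR adjusted p = 1.11e-06). Ighv5-16 had 208, 192 and 257 counts with saline and 646, 592 and 729 with carnosine, a rise of 1.51 on the log2 scale (SE 0.06, edgeR adjusted p = 7.93e-06). It was the segment with the most counts in each saline library, and Ighv1-26 took that place in each carnosine library. Ighv9-3, of a small subfamily in the part of the locus near the D segments, went from 122, 134 and 129 counts to 639, 532 and 752. Ighv1-64 had 126, 118 and 152 counts with saline and 531, 437 and 542 with carnosine. Its log2 fold change of 1.86 was almost that of the sum, so its share of member counts was 4.20% in saline and 4.17% in carnosine.

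Levels of different segments can be compared only per length. On CPM per kilobase of annotated exon, Ighv5-16 was at rank 1 in saline (51.0 ± 1.81) and rank 3 in carnosine (145 ± 4.43), while Ighv1-26 was at rank 3 in saline (38.6 ± 2.57) and rank 1 in carnosine (208 ± 4.30; SD, n = 3). Ighv3-6 was at rank 2 in saline with 44.5 ± 0.233 and Ighv9-3 at rank 2 in carnosine with 153 ± 8.51 on the same scale. The deposited FPKM values, which are also per length, put Ighv5-16 at rank 7 in saline and rank 6 in carnosine. The length implied by count and FPKM was 730 bases for Ighv5-16, whose gene spans 485 bases in all, of which 380 are exon. For 39 of the 99 members with counts the implied length was above the whole span of the gene, and for 85 of 99 it was within 1 base of the exon lengths added over all annotated transcripts. The FPKM of such a member is lower than its exon length alone would give, so levels of different members are not read from FPKM here.

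A pair of other abundant segments rose more than the sum. Ighv1-55 had 38, 40 and 67 counts with saline and 472, 402 and 508 with carnosine (log2 fold change 3.19, SE 0.12, edgeR adjusted p = 5.47e-06), and moved from rank 27 to rank 6 among the members by CPM per kilobase of exon. Ighv7-3 went from 44, 47 and 69 counts to 480, 370 and 488 and from rank 20 to rank 5 on that scale. Both had a higher share in every carnosine library than in any saline library. Other abundant segments rose less than the sum. Ighv3-6 had 163, 160 and 205 counts with saline and 382, 317 and 417 with carnosine, a 2.01-fold rise, and went from rank 2 to rank 7 on that scale. Ighv1-81 had 133, 119 and 166 counts with saline and 240, 214 and 284 with carnosine (0.75), and went from rank 4 to rank 15. Ighv1-53 and Ighv1-82 had log2 fold changes of 1.22 and 1.35. Ighv2-9 was not called: it had 108, 116 and 145 counts with saline and 140, 154 and 186 with carnosine (log2 fold change 0.31, SE 0.11, edgeR adjusted p = 0.106), although its carnosine levels lay above its saline levels.

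Some segments that rose were nearly or wholly without counts in saline. Ighv3-1 had 0 counts in each saline library and 68, 72 and 85 counts with carnosine, at least 71.0-fold higher when the saline group is given 3 counts in all, the limit set by a count of 0 (0.0885 CPM over the group). Ighv8-12 had 1, 0 and 0 counts with saline and 199, 151 and 255 with carnosine, a ratio of 573 with an exact 95% interval of 102 to 22664 that covers counting error only. For both segments every carnosine library lay above every saline library. Ighv2-5 had no saline count and 42, 39 and 58 counts with carnosine (at least 43.9-fold higher). Ighv14-1, also without a saline count, had 35, 29 and 43 (at least 33.8-fold higher), and Ighv7-4 had 20, 11 and 13 (at least 13.9-fold higher). Ighv3-8 and Ighv5-9, chosen after their values were seen, had ratios of 61.1 (exact 95% interval 16.6 to 510) and 55.6 (18.7 to 272). These segments belong to several subfamilies. Ighv1-39 had 3, 4 and 3 counts with saline and 234, 213 and 229 with carnosine (log2 fold change 5.96, SE 0.19, edgeR adjusted p = 2.59e-06). Ighv5-6 had 2, 6 and 2 counts with saline and 204, 175 and 191 with carnosine (5.71, SE 0.29, edgeR adjusted p = 2.46e-05). In all, 11 of the 113 members had no saline count but at least 1 carnosine count, and 2 had the reverse.

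Ighv1-12 was the single tested member that fell. It had 71, 97 and 119 counts with saline and 33, 29 and 25 with carnosine, and its level went from 8.42 ± 1.39 CPM to 2.47 ± 0.502 CPM (SD, n = 3; log2 fold change -1.78, SE 0.20, edgeR adjusted p = 0.00137). The groups did not overlap, and its rank by CPM per kilobase of exon went from 9 to 70. A few other segments, chosen after their values were seen, were also lower in every carnosine library but were not tested or not called. Ighv3-4 had 15, 9 and 16 counts with saline and 2, 0 and 0 with carnosine, a saline to carnosine ratio of 21.1 (exact 95% interval 5.48 to 180). Ighv2-6-8 had 11, 10 and 10 counts with saline and 1, 1 and 0 with carnosine (16.4, interval 4.17 to 141). Ighv12-3, whose subfamily is known from B-1 cell antibodies against phosphatidylcholine, had 5, 11 and 11 counts with saline and none with carnosine, at least 9.50-fold lower. Ighv1-74 had 148 counts in the saline group and 98 in the carnosine group (edgeR adjusted p = 0.0532). With no filter on low counts, 74 of the 99 members with a count were called higher (4.11% of all genes so tested) and 4 lower (3.04%), the 4 being Ighv1-12, Ighv3-4, Ighv2-6-8 and Ighv12-3. With any 1 library left out, 2 to 4 members were called lower, in each case Ighv1-12 with at least Ighv3-4 or Ighv2-6-8, which then passed the filter.

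**Figure D2:**
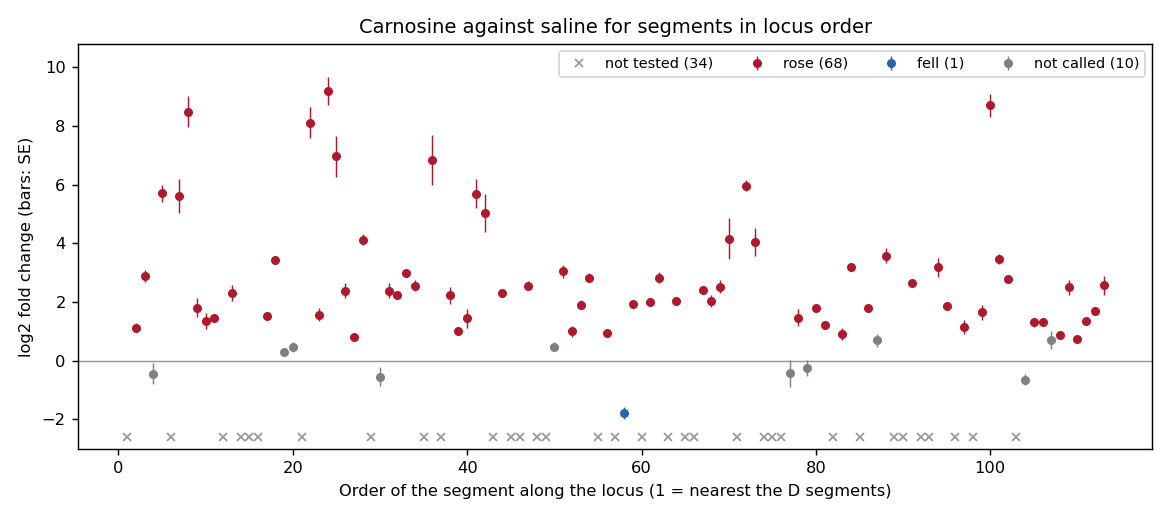
Log2 fold change, carnosine against saline, of the 79 tested segments (bars are SE) by their order along the locus, where 1 is nearest the D segments; red rose, blue fell, grey was not called, and crosses are the 34 segments not tested. Fitted values of the 5 tested segments without saline counts depend on the count added by the model and are not fold estimates. Rises occur along the whole axis, and Ighv1-12, at order 58, is the single blue point.

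Rises occurred along the whole locus. The locus was divided by order from the D segments into 38, 38 and 37 members. In these, 24 of 28, 21 of 23 and 23 of 28 tested members rose, beside 9.51% of all genes tested called higher and 8.39% lower. The median log2 fold changes were 2.35, 2.32 and 1.56. All 5 tested members without a saline count lay in the group nearest the D segments and could not have been called lower. The counts and medians thus describe the tested members only. The group nearest the D segments held 31.8% ± 0.390 of member counts with saline and 34.0% ± 0.375 with carnosine, and the farthest group held 37.2% ± 0.283 and 34.5% ± 0.310 (SD, n = 3; exact permutation p = 0.1 for each, the smallest possible). The middle group held 31.0% ± 0.290 and 31.5% ± 0.495 (exact permutation p = 0.2). The shift toward the D-proximal end was thus about 2 to 3 percentage points, with no overlap between the libraries of the groups at either end.

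The rise was found in every subfamily that could be tested. With members summed by subfamily, 13 of 13 sums that passed the filter rose and 0 fell, beside 9.2% of rows called higher and 8.27% lower over the 15232 rows of that table. The sum of subfamily 13 passed the filter through the carnosine libraries alone, so it could not have been called lower. Subfamily 1, the largest of the locus and often called J558, rose from 153 ± 2.44 CPM to 546 ± 4.55 CPM (SD, n = 3; log2 fold change 1.84, SE 0.03, edgeR adjusted p = 4.46e-08). Subfamily 14 rose from 4.51 ± 0.837 CPM to 41.4 ± 1.55 CPM (3.18, SE 0.12, edgeR adjusted p = 7.15e-06), and subfamily 8 from 5.12 ± 0.529 CPM to 34.0 ± 0.615 CPM (2.74, SE 0.09, edgeR adjusted p = 3.37e-06). Subfamily 2, near the D segments, rose least, by 1.79-fold (log2 fold change 0.84, SE 0.07, edgeR adjusted p = 0.000471). Subfamily 11, also known from B-1 cell antibodies against phosphatidylcholine, rose by 0.91 (SE 0.09). Subfamily 13 had 1 count in the saline group and 47 in the carnosine group, all from Ighv13-2 (ratio 44.5, exact 95% interval 7.61 to 1795). Subfamily 12, with 27 counts against 0, did not pass the filter with all libraries and was called lower without saline replicate 1 or without carnosine replicate 2. The only members of subfamilies 15 and 16 had no count in any library.

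Within a subfamily the segments did not move alike. The 40 tested members of subfamily 1 ranged from -1.78 (Ighv1-12) to 5.96 (Ighv1-39) on the log2 scale. Of them 34 rose and 1 fell, beside 9.51% of all genes tested called higher and 8.39% lower. In subfamily 3, Ighv3-6 rose 2.01-fold while Ighv3-1 appeared from no count, and the untested Ighv3-4 was lower. In subfamily 14, 4 of 4 tested members rose, of which Ighv14-1 had no saline count and could not have been called lower. Ighv14-2 had the smallest log2 fold change (2.40). Ighv14-3, the most abundant on the mean share over all libraries but not with saline, went from 12, 7 and 17 counts to 214, 187 and 269 (4.13, SE 0.18). In subfamily 8 the most abundant saline member, Ighv8-8, rose by 1.81, close to the sum, while Ighv8-12 appeared from 1 count. Subfamily 10 was split. Ighv10-3 had 31, 22 and 30 counts with saline and 118, 96 and 117 with carnosine and rose by 1.92 (SE 0.16, edgeR adjusted p = 0.000259). Ighv10-1, the more abundant with saline, had 53, 54 and 83 counts with saline and 82, 93 and 100 with carnosine and was not called (log2 fold change 0.48, edgeR adjusted p = 0.0729). Ighv6-3 rose by 2.32, and Ighv4-1, the 1 tested member of its subfamily, rose by 1.57.

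**Figure D3:**
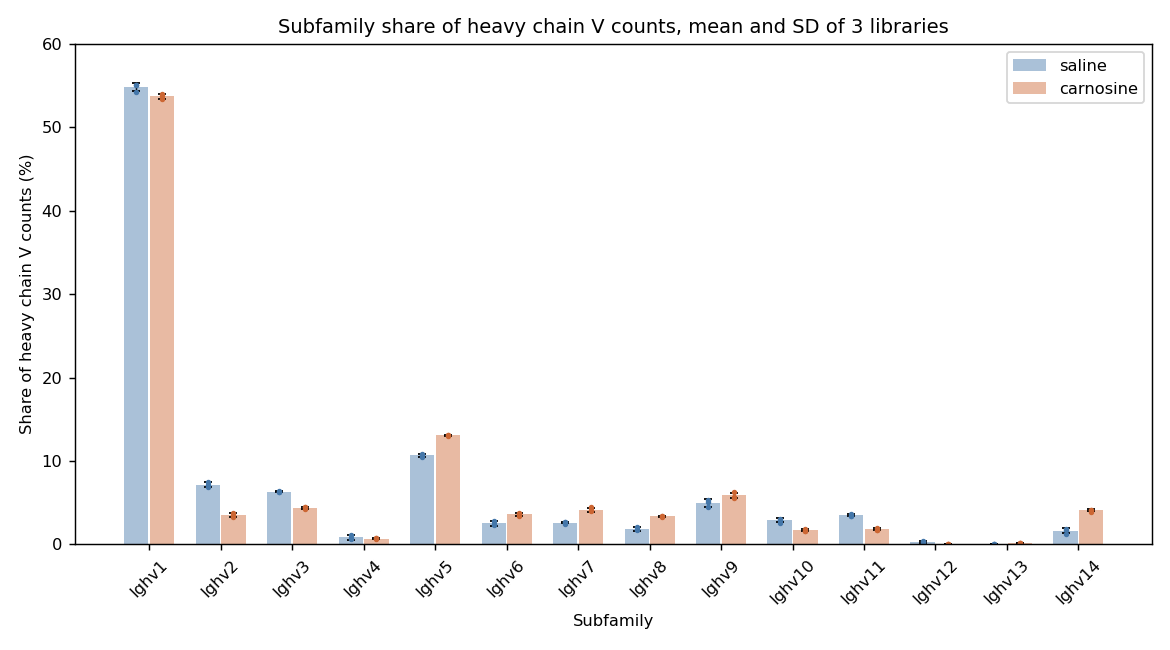
Share of all heavy chain V counts held by each subfamily with a count (bars are the mean of 3 libraries, error bars the SD, points the libraries; saline blue, carnosine orange). Subfamily 1 holds over 50% in both groups, subfamilies 5, 6, 7, 8, 9 and 14 have higher carnosine points, and subfamilies 2, 3, 10 and 11 have lower ones.

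Shares of member counts, the usage of the segments, show which rose more or less than the sum. Subfamily 1 held 54.8% ± 0.461 of member counts with saline and 53.7% ± 0.328 with carnosine. Subfamily 5 held 10.7% ± 0.183 and 13.1% ± 0.0502, and subfamily 14 held 1.62% ± 0.316 and 4.07% ± 0.133. Subfamily 2 went the other way, from 7.16% ± 0.309 to 3.51% ± 0.234, as did subfamily 3 (with a carnosine to saline ratio of shares of 0.699) and subfamily 10 (2.88% ± 0.242 and 1.68% ± 0.104; SD, n = 3 for all). The shares of the groups did not overlap for 13 of the 14 subfamilies with a count, 7 higher and 6 lower, the exception being subfamily 4. Set against the member sum in the same way, 0.223% of rows were higher and 98.3% lower without overlap. For each of the 13 the exact permutation test gave p = 0.1, the smallest possible, and 0.123 after Benjamini-Hochberg adjustment over the 16 subfamilies. As a test over the whole table, the edgeR fit was repeated with the summed member counts as library size, so that a change means a change in share. In that fit, 7 subfamily sums had a higher share (5, 6, 7, 8, 9, 13 and 14), beside 0.236% of rows, and 4 a lower share (2, 3, 10 and 11), beside 98.8% of rows. The latter background is high because the library size of that fit, the member sum, is itself larger in the carnosine libraries. Subfamilies 1 and 4 were not called. As nearly all rows of that fit were called, the adjustment over rows hardly changed the p-values. These calls are therefore close to calls at an unadjusted threshold of 0.05. Subfamily 13 had 1 saline count and passed the filter through the carnosine libraries alone, so its higher share is a description and not a test.

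Single segments also changed in share. By the same edgeR fit, 33 of the 79 tested members had a higher share with carnosine (0.405% of all genes tested) and 26 a lower share (98.6% of all genes tested), while 20 were not called. Here too the adjustment over genes hardly changed the p-values. The 5 tested members without a saline count could not have been called lower in share, so these counts describe the tested members only. Over all 113 members, the shares were higher in every carnosine library for 38, lower in every one for 31 and overlapping for 44, where 0.386% and 98% of all genes tested, set against the member sum in the same way, did not overlap in these directions. Among the 12 members with the largest mean share, 4 rose in share (Ighv1-26, Ighv9-3, Ighv1-55 and Ighv7-3), 7 fell in share and Ighv1-64 was not called. The share of Ighv1-26 was 4.86% in saline and 7.18% in carnosine, and that of Ighv2-9 was 3.90% and 1.33%. Ranked by share of counts, without regard to length, 5 segments were among the top 10 of both groups.

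Each library spread its counts over many segments. A common measure is the effective number of segments, the exponential of the Shannon entropy, which is the number of equally used segments with the same entropy. It was 46.3, 48.2 and 47.1 in the saline libraries and 52.6, 52.5 and 52.4 in the carnosine libraries, so the groups did not overlap. The means were 47.2 ± 0.924 and 52.5 ± 0.105 (SD, n = 3), a difference of 5.28 (exact permutation p = 0.1, the smallest possible, and 0.144 after adjustment over 13 measures). With shares of the deposited FPKM the difference was 2.86, and with counts per kilobase of exon, an alternative chosen after seeing the data, it was 5.19. The inverse Simpson number, which weights abundant segments more, was 35.4 ± 0.823 with saline and 37.9 ± 0.113 with carnosine.

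More segments were also detected with carnosine. There were 79, 82 and 77 members with a count in the saline libraries and 95, 92 and 90 in the carnosine libraries. Since carnosine libraries held more member counts, the number was also computed for a common total of 2884 member counts, where it was 79.1 ± 2.85 with saline and 87.9 ± 0.907 with carnosine (SD, n = 3; exact permutation p = 0.1). Among segments with a count, however, the evenness of use (Pielou's index, where 1 means equal use) was 0.881 ± 0.00474 with saline and 0.875 ± 0.00482 with carnosine, and the groups overlapped (exact permutation p = 0.3). That index divides the entropy by the log of the number of segments detected, which depends on the member counts of the library. Divided by the log of all 113 members, it was 0.815 ± 0.00414 with saline and 0.838 ± 0.000422 with carnosine, without overlap (exact permutation p = 0.1). That divisor is the same for every library, so this value restates the entropy behind the effective number and is not a separate result.

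The shares of the 1 and of the 5 most abundant segments, ranked by counts and not per length, overlapped between the groups. The most abundant segment held 6.95% ± 0.311 of member counts with saline and 7.18% ± 0.138 with carnosine (exact permutation p = 0.5), and the top 5 held 26.2% ± 0.832 and 25.9% ± 0.0624 (p = 0.6 by the same exact test). The top 10 held 44.3% ± 0.835 and 40.9% ± 0.218 (SD, n = 3; exact permutation p = 0.1), and 50% of member counts were reached with 13 segments in each saline library and with 14, 15 and 15 in the carnosine libraries. Over subfamilies the effective number was 5.39 ± 0.0761 and 5.47 ± 0.0434 (exact permutation p = 0.2).

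**Figure D4:**
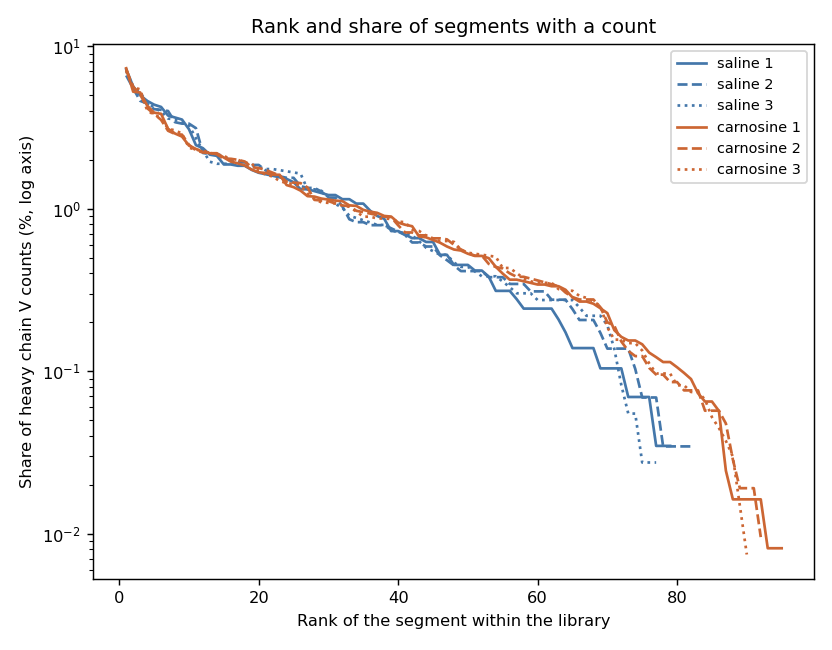
Share of heavy chain V counts of each segment (log axis, percent) against its rank within the library, with 1 line per library (saline blue, carnosine orange). The lines run together over the highest ranks and separate past rank 60, where saline lines end at 77 to 82 segments and carnosine lines at 90 to 95.

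Libraries of a group used nearly the same segments in nearly the same shares. The Bray-Curtis distance of member shares, which is 0 for identical and 1 for disjoint use, was 0.0788 to 0.0862 between saline libraries, 0.0421 to 0.0479 between carnosine libraries and 0.283 to 0.302 between a saline and a carnosine library. The mean distance between groups exceeded that within groups by 0.229 (exact permutation over the 10 ways to split the libraries, p = 0.1, the smallest possible). Within a group, the member counts of 2 libraries differed by little more than counting noise: the chi-square statistic per degree of freedom, which is 1 when only counting noise is present, was 0.981 to 1.38 for saline pairs and 1.04 to 1.45 for carnosine pairs, against 15.6 to 20.9 for pairs between groups. Over all genes it averaged 4.99 for saline pairs and 5.51 for carnosine pairs, and it was 13.6 to 16.0 between groups, so libraries of a group differed by more than counting noise over all genes. That does not show that they are separate samples rather than repeat libraries of 1 sample, and they were counted as the labels give them. For the same relative spread, the statistic grows with the counts per row, which were lower for members than for all genes. The member values and the values over all genes are therefore not comparable. The source of the close match of V segment shares within a group was not tested.

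**Figure D5:**
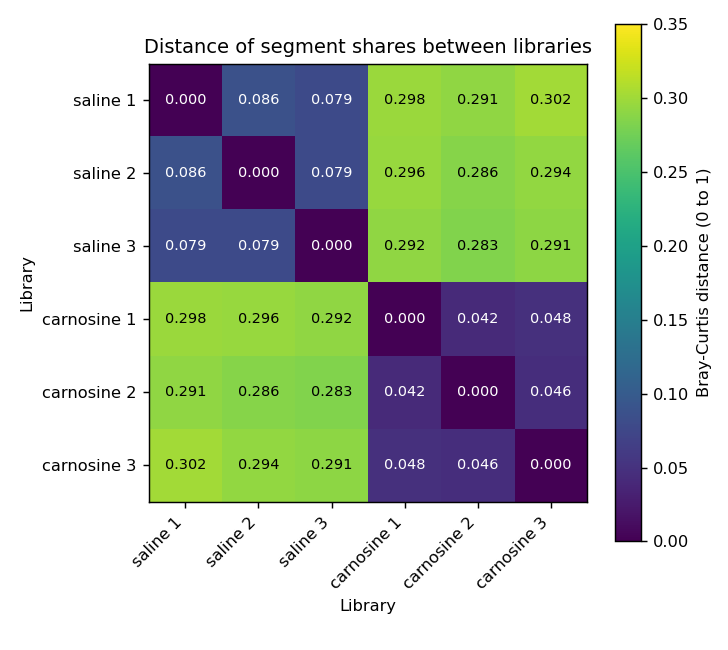
Bray-Curtis distance of heavy chain V segment shares for each pair of the 6 libraries (0 is identical use, 1 is no shared segment). The blocks of saline pairs (at most 0.0862) and of carnosine pairs (at most 0.0479) are dark, and the 9 pairs between groups lie from 0.283 to 0.302.

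Many V segments resemble each other closely, which limits how far single counts can be trusted, since no label states how reads that match several places were counted. Over aligned coding bases, the nearest relative of a member was 73.5% to 99.7% identical (median 94.9%). There were 55 members with a relative at 95% or more and 14 at 98% or more, and none was identical to another. The closest pair, Ighv1-62-2 and Ighv1-71, both rose (log2 fold changes 2.66 and 3.47). Of the segments whose sequences are given above, Ighv1-12 was 88.6% identical to its nearest relative, Ighv3-1 91.7%, Ighv1-39 93.2% and Ighv8-12 96.3%. Ighv8-13, the nearest relative of Ighv8-12, had no count in any library.

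Both members of subfamily 11 are printed as an example of a close pair in which 1 member had no saline count. Ighv11-1 (chr12:113981879-113982341) and Ighv11-2 (chr12:114048241-114048812; both GRCm38, minus strand) are 98.9% identical over their coding sequence. They differ at 4 positions counted from 1 at the start codon, A83G, C95A, C258A and T321G, where the base of Ighv11-1 comes first. Capitals mark those bases in the last 300 coding bases of each, which start at position 54.
Ighv11-1: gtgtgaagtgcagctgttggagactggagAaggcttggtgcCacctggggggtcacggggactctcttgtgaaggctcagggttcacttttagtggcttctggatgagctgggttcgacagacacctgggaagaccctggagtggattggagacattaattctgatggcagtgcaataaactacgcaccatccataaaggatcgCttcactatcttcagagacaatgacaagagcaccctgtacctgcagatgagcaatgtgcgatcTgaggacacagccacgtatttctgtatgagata
Ighv11-2: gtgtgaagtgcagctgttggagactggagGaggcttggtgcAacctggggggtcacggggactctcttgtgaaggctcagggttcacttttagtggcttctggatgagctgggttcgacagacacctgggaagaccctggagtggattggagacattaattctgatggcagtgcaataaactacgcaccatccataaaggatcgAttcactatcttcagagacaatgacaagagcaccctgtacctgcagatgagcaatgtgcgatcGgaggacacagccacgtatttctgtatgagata
Ighv11-2 had 105, 99 and 124 counts with saline and 199, 189 and 212 with carnosine (log2 fold change 0.80, SE 0.09, edgeR adjusted p = 0.00127). Ighv11-1 had no saline count and 14, 14 and 20 counts with carnosine, at least 15.2-fold higher. The saline libraries thus gave Ighv11-1 no count at a level of 9.71 CPM of its near copy. Reads of near copies could be split between them in the authors' counting, so the rise of Ighv11-1 is uncertain, while the subfamily sum does not depend on such a split.

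Other immunoglobulin genes changed in the same libraries. The summed kappa light chain V segments rose from 310 ± 12.6 CPM to 1092 ± 27.7 CPM (SD, n = 3; 3.52-fold), near the 3.65-fold of the heavy chain V sum. The lambda light chain V segments went from 41.7 ± 1.49 CPM to 78.7 ± 2.20 CPM (1.89-fold) and the heavy chain constant genes from 1004 ± 3.94 CPM to 2721 ± 43.1 CPM (2.71-fold). For every 100 heavy chain constant counts there were 27.8 ± 0.402 V counts with saline and 37.4 ± 0.436 with carnosine. The constant genes themselves shifted in make-up. Igha, the constant gene of IgA, made up 58.9% ± 0.0768 of heavy chain constant counts with saline and 82.7% ± 0.375 with carnosine, and rose by 1.93 on the log2 scale (SE 0.02, edgeR adjusted p = 1.38e-08). Ighm, the constant gene of IgM, named after its values were seen, fell by 0.29 (SE 0.03, edgeR adjusted p = 0.000436).

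Lists of genes for the cell types in which V segments are joined and expressed were read beside the members. For comparison, 9.51% of all genes tested were called higher and 8.39% lower. Of 12 tested immunoglobulin constant and joining chain genes, 9 rose and 1 fell, with Igha, Igkc, Ighg2b and Ighg1 among those that rose. Of 17 tested plasma cell genes, 5 rose and 1 fell, with a median log2 fold change of 0.09 over the list. The summed list was 608 to 690 CPM with saline and 779 to 1091 CPM with carnosine. Without Jchain, left out in a step that was not planned, it was 518 to 533 CPM and 483 to 555 CPM, which overlap. Of the 16 other tested genes, 4 rose and 1 fell. Jchain, which links IgA and IgM into polymers, had 157, 89.7 and 161 CPM with saline and 296, 536 and 537 CPM with carnosine. Irf4, a factor of plasma cell differentiation, rose by 0.65 and Mzb1, a chaperone of antibody secretion, by 0.75, while Sdc1, the surface marker CD138, fell by 0.44 (edgeR adjusted p = 0.00464, 0.0136 and 0.0115).

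Over all genes tested, 9.51% were called higher and 8.39% lower. In both lists of earlier B cell stages, the share called lower was above its value over all genes, while the share called higher was not. Of 10 tested mature B cell markers 0 rose and 3 fell, Blnk and Ebf1 among them, with a summed level of 96.1 to 108 CPM in saline and 89.2 to 96.2 CPM in carnosine. Of 14 tested genes of early B cells and V(D)J recombination, 1 rose (Xrcc5) and 4 fell, among them Dntt, which adds bases at the joints (by 0.27), and Rag1, a recombinase subunit (by 0.82). Of 12 factors known to act at the heavy chain locus or V promoters, Rad21 and Pou2af1 rose and Pou2f2 and Ebf1 fell. The part that cells of the B lineage in the sorted population have in the rise of the V segments was not tested.

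Markers of other cells were counted too, beside 9.51% of all genes tested called higher and 8.39% called lower. Of 15 long-term stem cell markers, all with counts, 1 rose (Mecom) and 0 fell, with a summed level of 1660 to 1731 CPM in saline and 1625 to 1766 CPM in carnosine. Of 10 tested erythroid genes 6 rose and 0 fell (62.1 to 70.9 CPM against 166 to 170 CPM summed), of 7 tested neutrophil granule genes 0 rose and 3 fell (716 to 729 CPM against 451 to 468 CPM summed), and of 8 tested T cell genes 0 rose and 1 fell (23.4 to 27.7 CPM against 22.8 to 25.7 CPM summed). No gene of these lists was at 0 in every library.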

How the data were processed

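RNA was measured by poly-A selected, stranded paired-end sequencing, per the labels' protocols. Per the submitters' processing notes, the tools included HISAT2, StringTie, edgeR and CASAVA 1.8, and the build was GRCm38. Which of them counted reads, with what strand setting, annotation and handling of reads matching several places, is not given in the sources used. The authors deposited raw counts and, beside them, FPKM values, per the file headers. Counts were used as deposited; FPKM only in alternatives and the check of lengths.

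Segments were tested in the whole table with edgeR 4.0.16 (R 4.3.3; TMM scaling, filterByExpr, quasi-likelihood F test, two-sided, Benjamini-Hochberg adjustment, threshold 0.05), and subfamilies as sums replacing their members. Single values per library were compared by exact two-sided permutation tests. Scripts were tested on simulated data. Alternatives used DESeq2 1.42.0 and limma 3.58.1. A total of 3 counts in a library, the upper limit of a count of 0, were 0.226 to 0.291 CPM. Intervals and limits cover counting error only: no molecular identifiers were used. The labels do not say whether equal replicate numbers pair libraries, so the replicate block was fitted only as an alternative.

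Members, gene lists and tests were chosen with earlier results of these data known. Segments named were the 12 with the largest mean share, up to 8 in each direction with the largest fold change among those past the threshold, with at least 30 counts and groups that did not overlap, the most abundant of each subfamily, and in each gene list up to 4 past the threshold with the smallest p. No Ighv promoter or protein sequence was used. Coding sequences are from GENCODE M21.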

Additional observations from a re-analysis of the deposited data

How the results depend on the processing

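The count of members that rose was 63 to 74 over the alternatives that test levels: 66 with DESeq2, 68 with limma-voom, with relative log expression, upper quartile or no scaling, 74 without a filter on low counts, 66 with a filter of 1 CPM in 3 samples and 63 at a threshold of 0.01. Leaving out 1 library at a time gave 66 to 71. Of the 69 members called, 64 kept call and direction under all 15 alternatives that test levels. The count that fell was 2 with upper quartile scaling (Ighv1-74 added), 4 without a filter, and 2 to 4 with 1 library left out, where further low members passed the filter. The subfamily sum called lower was Ighv12 in each case: 1 without a filter and 0 to 1 with 1 library left out (1 without saline replicate 1 or carnosine replicate 2), while 13 sums rose throughout. Tested as a share of member counts, an alternative chosen after seeing the data, 33 members and 7 subfamilies were higher and 26 members and 4 subfamilies lower. In that fit the adjustment hardly changed the p-values.

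The difference of the summed level was 1.89 without the most abundant segment and 1.92 with summed FPKM (log2), and 1.86 to 1.88 with 1 library left out. The difference in effective number was 2.86 with FPKM shares, 5.98 without the most abundant segment of each library and 2.51 as inverse Simpson number; with 1 library left out it was 4.85 to 5.77. The excess of distances between groups was 0.144 by the Morisita-Horn measure and 0.219 to 0.239 with 1 library left out. Miller-Madow correction, chosen after seeing the data, gave a difference in effective number of 4.88. The cause of these shifts was not tested.

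The replicate block, with libraries of the same number as a block, gave 67 members risen and 1 fallen, 13 subfamilies risen and 0 fallen, and 1.87 for the sum (edgeR adjusted p = 1.51e-05). Deviations of same-numbered libraries from their group means had correlations of -0.050, -0.058 and 0.020, and those of other number combinations were -0.021 to 0.069. With 3 libraries per group, these values cannot decide whether the numbers pair the libraries.

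Depth limits single segments: 14 members had no count, 20 were too low to test, and saline libraries held 2884 to 3649 member counts each.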

Other observations

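Besides the 113 members, the table holds 70 heavy chain V pseudogene segments, of which 10 had a count, with 11 counts in the saline group and 19 in the carnosine group. The heavy chain J segments held 70 and 61 counts and the D segments 5 and 9 counts in the saline and carnosine groups. These are values only and were not tested.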
